A study of Mus musculus with 2 samples.

Results

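The scaffold genes described here are Dlg1, Dlg2, Dlg3, Dlg4, Shank1, Shank2, Shank3, Homer1, Homer2 and Homer3. They were chosen by name as the core scaffold families of the excitatory postsynapse, and they are 10 of the 43346 Ensembl genes in the tables. All 10 were found by symbol, with 1 Ensembl identifier read for each. The series is total RNA-seq of the mouse midbrain at birth. It has 1 group of 2 pups of strain B6NCrl at postnatal age 0 days, pup 1 (replicate 1) and pup 3 (replicate 2). Each library came from a single midbrain, with 10 ng of RNA over 200 nt extracted by the mirVana method and with 2 spike-in references added. Both pups carry the same donor identifier in the labels, sex was not collected, and no genetic change or treatment is named. No comparison of conditions is possible within a single group, and since exact sign flips of 2 values never reach a p under 0.5, values are given with their spread and without tests.

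At an excitatory synapse the postsynaptic density anchors glutamate receptors to signalling proteins and to actin. The Dlg genes encode membrane-associated guanylate kinases, whose PDZ domains hold receptors, channels and adhesion molecules and whose guanylate kinase-like domain binds the Dlgap proteins. The Dlgap proteins bind the PDZ domain of Shank, the long organizer of the deeper layer of the density. A proline-rich stretch of Shank binds the EVH1 domain of Homer, and long Homer proteins pair through a coiled coil, which joins Shank to group I metabotropic glutamate receptors and to calcium channels of internal stores. In bulk tissue, fewer cells of a type and less RNA per cell cannot be told apart.

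The Dlg proteins differ among themselves at the start of the protein. In Dlg4 (PSD-95) and Dlg2 (PSD-93) a pair of cysteines near the amino end takes up palmitate, which attaches the protein to the membrane, whereas other forms start with an L27 domain. The coding starts of the transcripts that the results below turn on are shown to make this visible. They are the first 12 codons in GENCODE M21 on build mm10, all on the plus strand, with cysteine codons in capitals. The coordinates of Dlg1-206 (chr16:31664852-31665591), Dlg4-203 (chr11:70018920-70026928), Dlg4-201 (chr11:70030625-70030872) and Dlg4-204 (chr11:70017215-70017438) span an intron. Those of Dlg1-204 (chr16:31754783-31754818), Dlg2-204 (chr7:91091007-91091042) and Dlg3-202 (chrX:100768072-100768107) lie in 1 exon.
Dlg1-206: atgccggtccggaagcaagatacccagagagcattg
Dlg1-204: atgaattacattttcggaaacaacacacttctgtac
Dlg2-204: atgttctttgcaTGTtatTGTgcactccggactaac
Dlg3-202: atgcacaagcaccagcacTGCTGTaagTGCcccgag
Dlg4-203: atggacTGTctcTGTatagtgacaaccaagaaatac
Dlg4-201: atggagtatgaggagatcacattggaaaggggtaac
Dlg4-204: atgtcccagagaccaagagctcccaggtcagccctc

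All 10 genes were detected in both pups. Each reached 1 TPM (reads divided by transcript length and scaled to a fixed sum) in both libraries, a level passed by 62.1% of the 21474 protein-coding genes. At a minimum of 5 TPM, 8 of the 10 passed. The share of all protein-coding genes at 5 TPM was not computed, but the Homer2 mean of 5.02 TPM exceeded that of 50.8% of them. The median protein-coding gene lay at 4.63 TPM, and of the scaffolds only Dlg3 had a mean below it. Summed over the 3 families, the 10 scaffolds held a mean of 111.0 TPM.

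**Figure D1:**
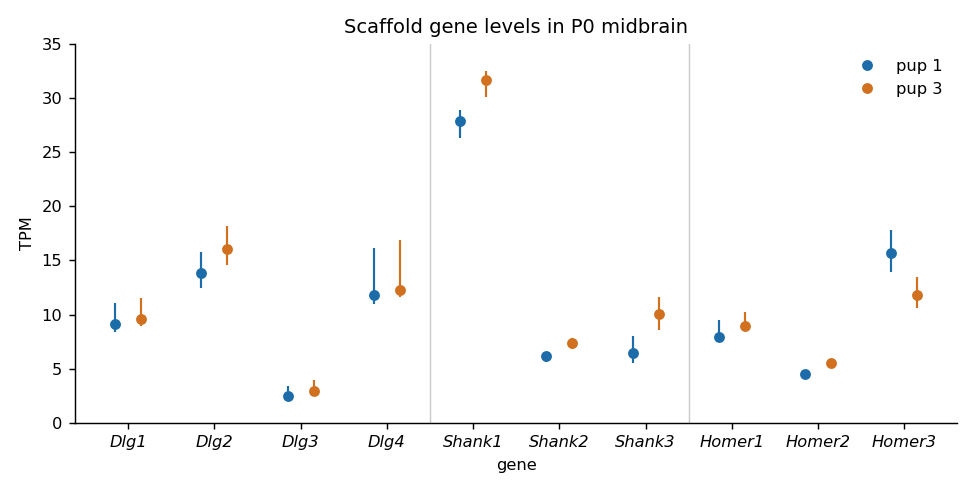
TPM (linear axis) of the 10 scaffold genes, with pup 1 on the left of each pair and pup 3 on the right. Points are the deposited TPM and vertical lines the deposited credibility interval of the posterior mean. Shank1 stands above the other 9 genes in both pups and Dlg3 below them.

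Shank1, the largest of the Shank scaffolds, was the highest member. It had 27.9 TPM in pup 1 and 31.7 TPM in pup 3 (4543 and 5747 expected counts), a mean of 29.8 ± 2.70 TPM (SD, n = 2). Its mean exceeded that of 77.3% of protein-coding genes. The gene (ENSMUSG00000038738.11) spans chr7:44310253-44360572 on the plus strand. Both pups had more Shank1 than either pup had of any other scaffold.

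Dlg2, which encodes PSD-93, followed with 13.8 TPM in pup 1 and 16.1 TPM in pup 3, averaging 14.96 ± 1.58 TPM. Homer3 came next with 15.7 TPM in pup 1 and 11.8 TPM in pup 3, averaging 13.7 ± 2.76 TPM. Dlg4, the PSD-95 gene, had 11.9 and 12.2 TPM in pup 1 and pup 3, a mean of 12.045 ± 0.276 TPM. The pups' values of Dlg2 and Homer3 overlapped, as did those of Homer3 and Dlg4, so Homer3 could not be placed among them. Dlg2 was above Dlg4 in both pups, with log2 ratios of 0.22 in pup 1 and 0.39 in pup 3, but their deposited intervals overlapped. Dlg2 (ENSMUSG00000052572.11) spans chr7:90476672-92449247, Dlg4 (ENSMUSG00000020886.12) spans chr11:70016942-70047522 and Homer3 (ENSMUSG00000003573.11) spans chr8:70282827-70294361, each on the plus strand.

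The next 4 scaffolds lay close together below them: Dlg1, Homer1, Shank3 and Shank2. Dlg1, which encodes SAP97, had 9.09 TPM in pup 1 and 9.62 TPM in pup 3 (mean 9.36 ± 0.375). Homer1 had 7.94 TPM in pup 1 and 8.91 TPM in pup 3 (mean 8.43 ± 0.686). For both Dlg4 over Dlg1 and Dlg1 over Homer1 the pups' ranges were apart but the deposited intervals overlapped in at least 1 pup. Dlg1 (ENSMUSG00000022770.12) lies at chr16:31663443-31875129 and Homer1 (ENSMUSG00000007617.13) at chr13:93299635-93405129, both on the plus strand.

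Shank3 had 6.49 TPM in pup 1 and 10.1 TPM in pup 3 (mean 8.29 ± 2.55). Shank2 had 6.13 TPM in pup 1 and 7.38 TPM in pup 3 (mean 6.76 ± 0.884). Shank3 in pup 1 was below both Homer1 values and below Shank2 of pup 3, so its place among these neighbours was not settled. Shank3 (ENSMUSG00000022623.11) spans chr15:89499623-89560261 and Shank2 (ENSMUSG00000037541.15) spans chr7:144001928-144424494, both on the plus strand.

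The lowest places were held by Homer2 and by Dlg3, the SAP102 gene of the X chromosome. Homer2 had 4.55 TPM in pup 1 and 5.49 TPM in pup 3 (mean 5.02 ± 0.665), and Dlg3 had 2.45 and 2.97 TPM (mean 2.71 ± 0.368). Of the 9 neighbouring pairs in the order of levels, those separated by both the pups' ranges and the deposited intervals were Shank1 over Dlg2, Shank2 over Homer2 and Homer2 over Dlg3. Homer2 (ENSMUSG00000025813.9) lies at chr7:81600481-81707527 on the minus strand and Dlg3 (ENSMUSG00000000881.8) at chrX:100767722-100818410 on the plus strand.

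Within families, the ratio of paralogs was taken on log2(TPM + 0.1) in each pup. A pair was called apart where both pups gave the same sign, the mean was over 1 and over 3 SD, and the deposited intervals did not overlap in either pup. Of 12 pairs, 5 were apart. Dlg3 was below each of the other Dlg genes, with mean log2 ratios of 1.76 ± 0.13 for Dlg1 over Dlg3, 2.42 ± 0.037 for Dlg2 over Dlg3 and 2.12 ± 0.16 for Dlg4 over Dlg3. Shank1 was above Shank2 by 2.13 ± 0.056 and above Shank3 by 1.86 ± 0.31.

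No Homer pair met the rule. Homer3 over Homer2 was at 1.76 in pup 1 and 1.09 in pup 3 on the log2 scale, a mean of 1.42 ± 0.48, which fell short of 3 SD. Homer3 over Homer1 was at 0.68 ± 0.41 and Homer1 over Homer2 at 0.74 ± 0.072. The ratios among Dlg1, Dlg2 and Dlg4 were under 1 in size, from 0.31 ± 0.12 for Dlg2 over Dlg4 to 0.67 ± 0.095 for Dlg2 over Dlg1. Shank3 over Shank2 was at 0.26 ± 0.26.

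Expressed as shares of each family's TPM, Shank1 held 66.6% ± 3.09, Shank3 18.3% ± 3.18 and Shank2 15.1% ± 0.091 of the Shank sum. Among the Dlg genes, Dlg2 held 38.2% ± 1.51, Dlg4 30.9% ± 1.35, Dlg1 24.0% ± 0.637 and Dlg3 6.92% ± 0.480. Among the Homer genes, Homer3 held 50.3% ± 7.55, Homer1 31.1% ± 4.14 and Homer2 18.6% ± 3.41. The family sums were 37.2 TPM in pup 1 and 40.9 TPM in pup 3 for Dlg, 40.5 and 49.1 TPM for Shank, and 28.2 and 26.2 TPM for Homer.

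These shares depend on which transcripts carry the reads, because TPM weights a read on a short transcript more than a read on a long one. Shares were therefore also taken on TPM of the transcripts with a complete coding sequence, a measure chosen after seeing the data, and on expected counts, which compare no levels per length. On complete coding TPM, Shank1 held 78.3% ± 0.115 and Shank3 3.79% ± 0.0734 of the Shank sum. In the same measure Dlg4 held 39.9% ± 0.150 and Dlg2 29.7% ± 0.783 of the Dlg sum, and the log2 ratio of Dlg2 over Dlg4 changed sign to -0.42. Homer3 held 42.1% ± 4.85 and Homer1 36.3% ± 2.36 of the Homer sum. Shank1 thus had the largest share of its family in the 3 measures, while the leading Dlg gene did not stay the same.

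**Figure D2:**
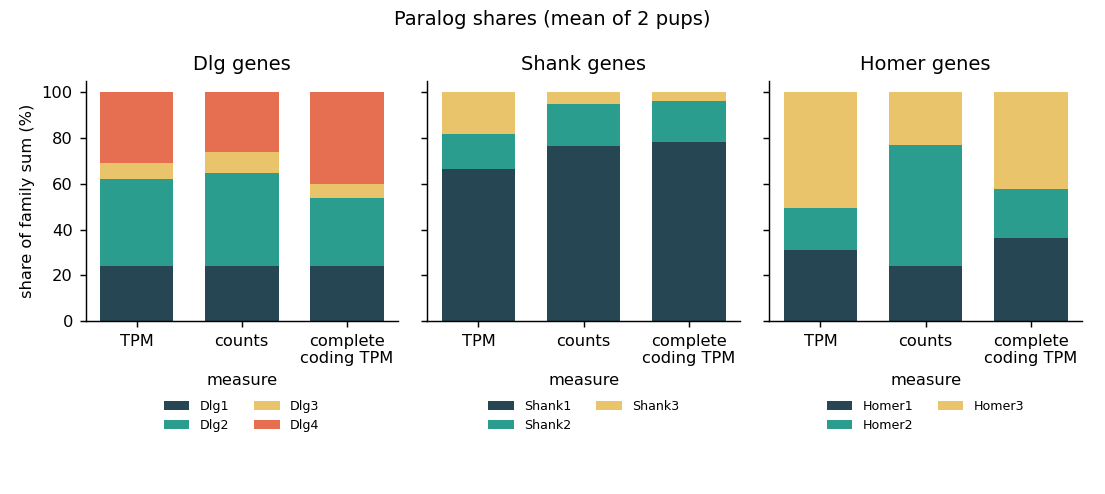
Share of each family's sum (percent, mean of 2 pups) held by each paralog, by TPM, by expected counts and by TPM of complete coding transcripts, stacked in gene order from the bottom. Shank1 holds 66.6% to 78.3% of its family, Shank3 is at 18.3% by TPM and at 3.79% by complete coding transcripts, and Homer2 is at 18.6% by TPM and at 52.6% by counts.

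Homer2 shows how far a transcript model sets a level. Its reads were assigned to 1 transcript, Homer2-201, which held 1148 counts in pup 1 and 1512 in pup 3 and has a length of 10999 nt in the deposited tables. The transcript of that name in M21 has 1736 nt. The other Homer2 transcript, Homer2-202, had no counts and has 10982 nt both in the deposited tables and in M21. Homer2 held 52.6% ± 3.17 of the Homer counts, against 18.6% of the Homer TPM, and its place below Homer1 and Homer3 rests on the deposited length.

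The 10 genes held 86 transcripts, of which 70 had reads in at least 1 pup and 23 carried 10% or more of their gene's TPM on average. The leading transcript was the same in both pups for 8 of the 10 genes, Dlg3 and Homer3 being the exceptions. Of the 86, 85 were found in M21 and 63 had the same length there, so classes and protein lengths, which come from M21, may not match the M4 models that were counted. Homer1 and Homer2 had complete coding transcripts alone, and in Shank1 and Shank2 such transcripts held 94.6% ± 1.27 and 95.2% ± 3.03 of TPM. The share was lower in the Dlg genes, from 43.6% ± 2.48 in Dlg2 to 72.7% ± 3.49 in Dlg4, and lowest in Shank3 at 17.0% ± 3.85.

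**Figure D3:**
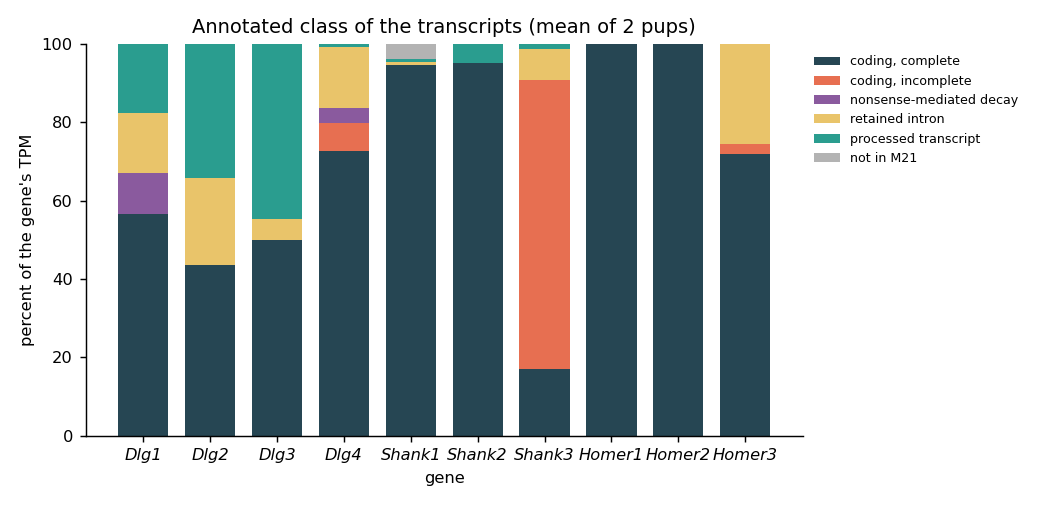
Percent of each gene's TPM (mean of 2 pups) by the class of its transcripts in GENCODE M21. Complete coding transcripts fill Homer1 and Homer2, hold 43.6% to 72.7% in the Dlg genes and 17.0% in Shank3, where a single incomplete coding transcript holds 73.9%.

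Dlg4 was carried mainly by Dlg4-201, whose M21 coding sequence has 664 amino acids and starts downstream of the cysteine codons, as its sequence above shows. It held 55.9% of Dlg4 TPM in pup 1 and 64.6% in pup 3. Dlg4-203, of 724 amino acids, with the 2 cysteine codons, held 14.3% and 10.6%. Dlg4-204, of 767 amino acids, which starts further upstream, was without counts in both pups. The 201 and 203 models share 17 identical exons, out of 19 in Dlg4-201 and 20 in Dlg4-203, and Dlg4-201 is 3204 nt long in the deposited tables and 2708 nt long in M21. Reads over the shared exons do not tell them apart, so the split rests on the few exons that differ.

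The remaining Dlg4 TPM lay on short or noncoding models with few reads. Dlg4-207, a retained-intron transcript of 301 nt, held 16.1% of TPM in pup 1 and 7.49% in pup 3 on 8.91 and 4.68 counts. By counts, complete coding transcripts held 95.4% of Dlg4 in pup 1 and 95.9% in pup 3. Dlg4 splicing is known to be under the control of the polypyrimidine tract-binding proteins, which repress an exon late in the coding sequence. Without that exon the reading frame is broken and the RNA is degraded by nonsense-mediated decay.

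The M21 model of Dlg4-205, annotated for nonsense-mediated decay, lacks an exon of 110 nt that is exon 18 of the 20 of Dlg4-203. The exon lies at chr11:70043658-70043767 on the plus strand, its length leaves 2 bases over after division by 3, and it is shown in capitals because its absence marks that model.
Dlg4 exon absent from Dlg4-205: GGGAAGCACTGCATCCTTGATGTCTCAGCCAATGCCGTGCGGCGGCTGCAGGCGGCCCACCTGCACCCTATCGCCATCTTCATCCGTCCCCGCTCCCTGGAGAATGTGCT
Dlg4-205 held 2.45% of Dlg4 TPM in pup 1 and 5.36% in pup 3, on 4.22 and 10.4 counts. The model that was counted is 729 nt long and the M21 model 2888 nt, so whether those reads come from the junction that skips the exon was not tested. Ptbp1, which represses this exon in neural progenitors, was at 38.6 TPM in pup 1 and 41.8 TPM in pup 3. Ptbp2, its neuronal relative, was at 97.9 and 106 TPM, above Ptbp1 in both pups.

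Homer1 is the other member whose products differ in kind. Long Homer1 proteins hold the coiled coil, and the short Homer1a protein, whose transcript reads through the end of a coding exon into the following intron sequence, lacks it and is known to be induced by neuronal activity. The place where the Homer1 transcripts part is printed here with 15 shared bases in lower case and the 30 that follow in each transcript in capitals, from M21 on the plus strand of mm10. For Homer1-204 the stretch is unbroken (chr13:93356065-93356109). For Homer1-202 (chr13:93356065-93387553), Homer1-203 and Homer1-207 (both chr13:93356065-93386374), Homer1-205 (chr13:93356065-93366272) and Homer1-206 (chr13:93356065-93366307) it spans an intron.
Homer1-202: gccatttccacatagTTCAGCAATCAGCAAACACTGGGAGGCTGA
Homer1-203: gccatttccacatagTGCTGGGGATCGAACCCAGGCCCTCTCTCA
Homer1-207: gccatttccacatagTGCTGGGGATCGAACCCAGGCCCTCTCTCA
Homer1-206: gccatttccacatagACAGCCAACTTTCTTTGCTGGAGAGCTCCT
Homer1-205: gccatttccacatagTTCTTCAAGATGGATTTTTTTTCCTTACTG
Homer1-204: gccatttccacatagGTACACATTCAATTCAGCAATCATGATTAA

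Transcripts whose coding sequence reaches the last coding exon held most of Homer1, 78.1% of TPM in pup 1 and 78.2% in pup 3. Those that end before it held 21.9% and 21.8%, on 94.9 counts in pup 1 and 135 in pup 3. The split between these forms was thus nearly the same in both pups. By counts the short forms held 17.4% in pup 1 and 19.7% in pup 3.

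Among the long forms, Homer1-202 (370 amino acids) held 60.8% of TPM in pup 1 and 56.5% in pup 3, and Homer1-203 (366 amino acids) 17.3% and 21.8%. Homer1-204, of 186 amino acids, is the read-through form that corresponds to Homer1a, and it held 1.17% of TPM in pup 1 and 2.77% in pup 3 on 12.1 and 35 counts. The other short forms were Homer1-206 at 6.72% and 13.6%, Homer1-207 at 11.2% and 4.22%, and Homer1-205 at 2.91% and 1.17%. The highest short form was not the same in both pups, but the deposited intervals of Homer1-206 and of Homer1-207 each overlapped between the pups. Those of Homer1-204 did not overlap, at 0.0430 to 0.162 TPM in pup 1 and 0.164 to 0.346 TPM in pup 3. Nor did those of Shank1-203 or of Homer2-201, and the share of all transcripts without overlap was not computed. With 1 library per pup, the Homer1-204 difference could not be checked in a replicate. No counts were held by 5 of the 11 Homer1 transcripts. Homer1-203 and Homer1-207 share the bases printed above, so reads there do not tell a long from a short form.

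**Figure D4:**
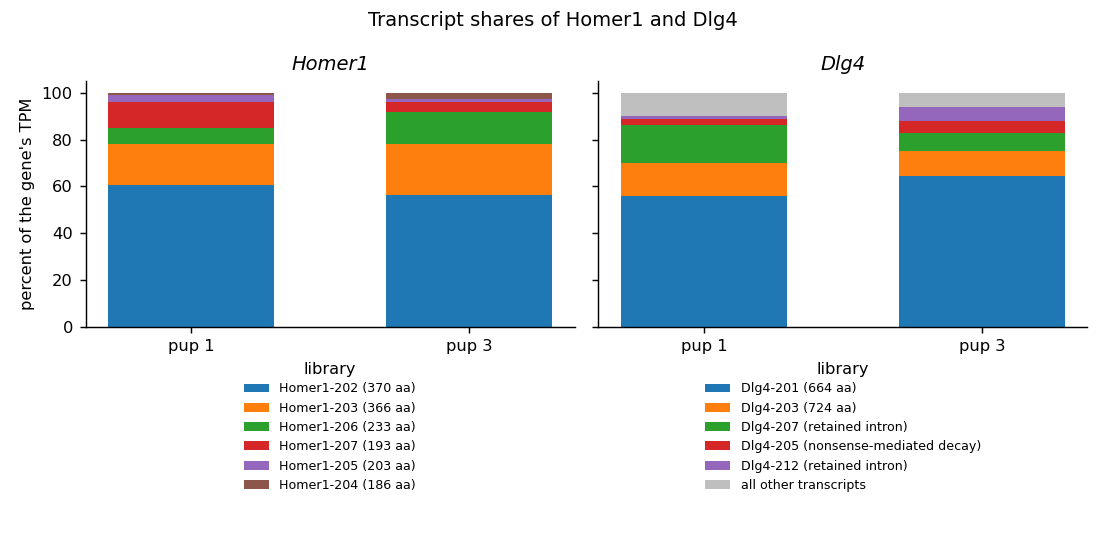
Percent of the gene's TPM held by each transcript of Homer1 (left, all read transcripts) and Dlg4 (right, transcripts over 3% on average, the rest in grey), with pup 1 left of pup 3. The 2 long Homer1 forms at the bottom reach 78.1% in pup 1 and 78.2% in pup 3, and Dlg4-201 at the bottom of the Dlg4 bars reaches 55.9% and 64.6%.

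Genes known to respond to neuronal activity, the setting in which Homer1a is best known, were low to moderate. Arc, an activity-regulated protein of the postsynaptic density, was at 2.53 TPM in pup 1 and 2.50 TPM in pup 3. Fos was at 6.18 and 8.46 TPM and Egr1 at 11.4 and 14.5 TPM, both immediate early transcription factors. The highest of the 8 listed genes was Dusp1, a phosphatase of MAP kinases, at 21.9 ± 0.325 TPM, and the lowest Fosb at 0.08 ± 0.0141 TPM. Of the 8, 6 reached 1 TPM in both pups.

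Shank3 TPM rested on a short model. Shank3-207, an incomplete coding transcript of 719 nt that starts inside the gene, held 74.9% of Shank3 TPM in pup 1 and 72.9% in pup 3, but 24.0% and 29.3% of the counts. Complete coding Shank3 transcripts amounted to 1.28 TPM in pup 1 and 1.44 TPM in pup 3, against 5.97 and 6.88 TPM for Shank2. Their reads were split differently in each pup. Shank3-203 (1805 amino acids) took 157 counts in pup 1 and none in pup 3, and Shank3-201 (1730 amino acids) had 56.7 and 256. The deposited intervals of each still overlapped between the pups.

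Part of Shank3 is also covered by Gm15609, a noncoding RNA gene on the opposite strand (chr15:89520096-89523677). Shank3 held 289.86 counts in pup 1 and 392.94 in pup 3, and Gm15609 held 39.14 and 54.06. The fractions add up to whole sums of 329 and 447. Homer3 has such a partner in Ddx49, an RNA helicase gene on the opposite strand (chr8:70292866-70302489), with 589.01 counts in pup 1 and 561.47 in pup 3 for Homer3 and 1505.99 and 1708.53 for Ddx49, whole sums of 2095 and 2270. The sources used here do not say whether strand was used in counting, so Shank3 and Homer3 levels are uncertain by what they share with these genes, while the other 8 scaffolds had whole counts.

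Shank1 rested mainly on 1 transcript and Shank2 on several. Shank1-203, of 2167 amino acids, carried 93.6% of Shank1 TPM in pup 1 and 95.4% in pup 3. Shank2-202 (1472 amino acids) carried 62.8% and 53.0% of Shank2, Shank2-205 (1262 amino acids) 22.5% and 28.6%, and the longest form Shank2-203 (1841 amino acids) 7.89% and 9.15%. The coding sequences of all 4 complete coding Shank2 transcripts end at the same base, 144421132 of chromosome 7. Those of the 3 named start at 144175920, 144284969 and 144031264, so the form with the earliest start was the least abundant of the 3 in both pups. The remaining form, Shank2-201, starts at 144284969 and was lower still, at 4.26% and 2.41%.

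Homer binds short motifs of 2 prolines, 2 further residues and phenylalanine. The motif was searched in the longest M21 coding sequence of each gene as codons in frame, and 1500 of 21760 genes (6.89%) held it at least once. The Shank stretches that hold it are shown with the 5 motif codons in capitals and 5 codons on either side, at chr7:44353566-44353610 for Shank1, chr7:144411111-144411155 and chr7:144411309-144411353 for Shank2, and chr15:89547760-89547804 and chr15:89549188-89549232 for Shank3, all on the plus strand of mm10.
Shank1 residue 1575: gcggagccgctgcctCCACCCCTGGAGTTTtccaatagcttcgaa
Shank2 residue 1403: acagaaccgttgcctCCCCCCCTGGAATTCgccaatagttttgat
Shank2 residue 1469: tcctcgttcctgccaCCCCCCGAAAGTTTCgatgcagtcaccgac
Shank3 residue 908: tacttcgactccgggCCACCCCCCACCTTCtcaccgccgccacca
Shank3 residue 1384: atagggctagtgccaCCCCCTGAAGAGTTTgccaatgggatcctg
A match describes the letters and is not a measured binding site.

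The paralogs are more alike among the Dlg proteins than in the other families. Over the aligned residues of the longest M21 products, identity was 65.9% to 75.3% among the Dlg genes, 49.5% to 52.1% among the Shank genes and 47.7% to 51.8% among the Homer genes. Dlg1 and Dlg2 were the most alike and Homer2 and Homer3 the least.

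The other Dlg transcripts at 10% or more of their gene were a mix of classes. In Dlg1, Dlg1-206 (905 amino acids) held 31.8% of TPM in pup 1 and 33.5% in pup 3 and Dlg1-204 (834 amino acids) 19.9% and 20.5%. Dlg1-213, a noncoding transcript of 470 nt, held 19.6% and 15.5% on 15.3 and 13.99 counts. In Dlg2, Dlg2-204 (852 amino acids, with 2 cysteine codons at its start) held 40.2% and 35.7%, the noncoding Dlg2-207 30.8% and 25.9%, and the retained-intron Dlg2-209 13.2% and 19.5%.

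Dlg3 was divided differently in each pup. Dlg3-202 (849 amino acids) held 32.9% in pup 1 and 11.0% in pup 3, whereas Dlg3-201 (817 amino acids) held 13.1% and 34.0%. The noncoding Dlg3-208 held 46.9% and 32.1%. The deposited intervals of Dlg3-202 overlapped between the pups (0.0706 to 0.959 TPM in pup 1 and 0.0208 to 0.725 TPM in pup 3), as did those of Dlg3-201. Homer3 was divided between a pair of transcripts of 359 amino acids each, Homer3-201 at 36.8% in pup 1 and 24.2% in pup 3 and Homer3-203 at 22.6% and 50.1%. The interval of Homer3-203 was 0.0388 to 6.52 TPM in pup 1 and 3.26 to 8.37 TPM in pup 3, and that of Homer3-201 overlapped between the pups too, so neither split was apart from the uncertainty of assigning reads. Retained-intron transcripts, led by Homer3-207 at 16.2% and 12.7%, held 32.4% of Homer3 TPM in pup 1 and 18.8% in pup 3. Among them Homer3-208 held 16.1% in pup 1 and 3.63% in pup 3, on 33.8 and 6.25 counts. Its deposited intervals did not overlap, at 1.31 to 3.89 TPM in pup 1 and 0.0802 to 1.22 TPM in pup 3. Those of the whole Homer3 gene did not overlap either, at 13.9 to 17.8 TPM in pup 1 and 10.6 to 13.5 TPM in pup 3. Gene intervals of Shank1, Shank2, Shank3 and Homer2 were also apart between the pups, with pup 1 lower. The share over all genes or transcripts was not computed, and with 1 library per pup no replicate check was possible.

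The partners of these scaffolds were mostly present. Of 73 listed partner and comparison genes, 68 (93.15%) reached 1 TPM in both pups, against 62.1% of all protein-coding genes, with a median of 15.3 TPM. The lists were chosen with earlier results of these data known, so the higher share is no test of the partners. The 4 Dlgap genes, which link Dlg to Shank, all reached 1 TPM in both pups. Dlgap4 was at 199.8 ± 9.58 TPM, Dlgap3 at 29.5 ± 0.148 TPM, Dlgap1 at 26.0 ± 2.16 TPM and Dlgap2 at 8.03 ± 0.460 TPM, so Dlgap4 alone exceeded the summed 111.0 TPM of the 10 scaffolds.

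All 12 other guanylate kinase scaffolds and their Lin7 partners reached 1 TPM. Lin7c, a small PDZ adaptor, was at 177 ± 1.17 TPM and Cask, which works with it at the presynaptic side, at 65.5 ± 3.03 TPM. Magi3 was the lowest at 1.80 ± 0.00707 TPM, and Dlg5, a more distant Dlg gene, was at 14.1 ± 1.49 TPM. The 8 signalling partners of PSD-95 also passed, led by Arhgef7, an exchange factor for Rac and Cdc42, at 44.6 ± 0.898 TPM and Kalrn, another exchange factor, at 17.0 ± 2.88 TPM.

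The enzymes that add palmitate to PSD-95 or remove it all reached 1 TPM, 7 of 7. Abhd17a, which removes it, was at 132 ± 2.86 TPM, the transferase gene Zdhhc3 at 71.8 ± 0.841 TPM and Zdhhc15 at 1.77 ± 0.0566 TPM. All 5 adhesion partners that reach across the cleft passed too, led by Nlgn3, a neuroligin, at 69.9 ± 1.21 TPM and by Adam22, a receptor of Lgi1, at 37.8 ± 3.61 TPM. Adam23, the lowest, was at 14.6 ± 2.51 TPM.

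Receptors and channels held by Dlg were lower, with 5 of 7 at 1 TPM in both pups and a median of 5.64 TPM. Grin2b, the NMDA receptor subunit that predominates before birth and early after it, was at 27.5 ± 2.52 TPM and Cacng2, the auxiliary AMPA receptor protein stargazin, at 13.8 ± 0.651 TPM. Kcnj2, an inward rectifier, was at 0.405 ± 0.177 TPM, and Grin2c at 0.570 ± 0.0990 TPM was the other gene under 1 TPM.

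Of 10 Homer ligands, 9 reached 1 TPM, with a median of 3.87 TPM. Cdc42, a small GTPase that acts on actin, was at 1009.9 ± 4.67 TPM and Dbn1, the actin-binding protein drebrin, at 411 ± 0.757 TPM, while Itpr3, a calcium channel of internal stores, was at 0.415 ± 0.120 TPM. The longest coding sequence of Dbn1 held the motif searched above 2 times, that of Itpr3 once and that of Cdc42 at no place. The 8 Shank ligands all passed with a median of 98.2 TPM. Lasp1 and Cttn, both actin-binding proteins, were at 149.9 ± 2.40 and 139 ± 2.26 TPM, and Lrrc7 (densin) at 3.015 ± 0.686 TPM.

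At inhibitory synapses gephyrin takes the place of the Dlg scaffold. Its gene Gphn was at 60.2 TPM in pup 1 and 58.2 TPM in pup 3. Dlg4 over Gphn was at a log2 ratio of -2.29 ± 0.068, and the pair met the rule for being apart. The Dlg genes together summed to 37.2 TPM in pup 1 and 40.9 TPM in pup 3, nearer to Gphn but still below it. Nlgn2, the neuroligin of inhibitory synapses, was at 19.0 ± 1.52 TPM.

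The 2 libraries held 36934868 expected counts in pup 1 and 40769103 in pup 3. Among 13318 genes at a mean of 100 counts or more, 42 (0.315%) differed between the pups by more than 1 on the log2 TPM scale, and none of the 10 scaffolds did. No partner or comparison gene at that count did either. The scaffold nearest the limit was Shank3 at -0.63 (pup 1 minus pup 3).

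Of the 10 scaffolds, 9 were lower in pup 1, Homer3 being the exception, where 54.8% of all genes at 100 counts were lower in pup 1. Their median log2 difference was -0.20, against -0.018 over all genes. On counts scaled to depth the same 9 members were lower in pup 1, where 49.5% of all genes were. Exact 95% intervals on the counts lay below 0 for 6 members, against 22.5% of all genes at 100 counts, and above 0 for Homer3, against 20.8% of all genes. These intervals cover counting error only, and they narrow with the count of a gene. With 1 library per pup, none of these differences could be checked in a replicate.

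In every member but Dlg4, Shank1 and Homer1 the TPM difference was larger in size than the count difference. The gap was widest for Shank3 and Homer3. Shank3 was at -0.63 on TPM and at -0.30 on counts (interval -0.52 to -0.07), and its effective length was 1930 nt in pup 1 and 1542 nt in pup 3. Homer3 was at 0.41 on TPM and at 0.21 on counts (interval 0.04 to 0.38), with effective lengths of 1626 and 1889 nt. In the other 8 members the TPM difference lay between -0.27 for Dlg3 and -0.05 for Dlg4.

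**Figure D5:**
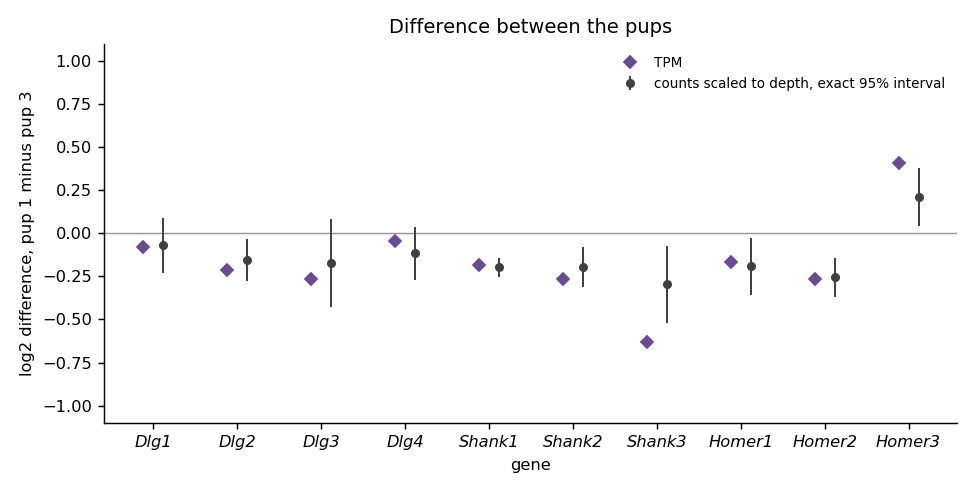
Log2 difference, pup 1 minus pup 3, for each scaffold gene, on TPM (diamonds) and on counts scaled to depth (circles, with exact 95% intervals that cover counting error only). Shank3 at -0.63 and Homer3 at 0.41 on TPM stand farthest from 0, and on counts they are at -0.30 and 0.21.

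Markers of tissue near the midbrain also differed between the pups. Of 15 forebrain and hypothalamus genes, 13 reached 1 TPM in both pups, 13 were lower in pup 1 and 6 were past 1 in size among genes at 100 counts, and they summed to 212 TPM in pup 1 and to 412 TPM in pup 3. Avp, the vasopressin gene, made up most of these sums, with 124 TPM in pup 1 and 269.7 TPM in pup 3. None of the 15 was at 0 counts in either pup. Of 6 cerebellar genes, 5 reached 1 TPM in both pups and 5 were lower in pup 1, with sums of 59.4 and 77.4 TPM. The exception to both was Atoh1, at 1 count in pup 1 and 0 counts in pup 3. The 5 astrocyte genes summed to 523 TPM in pup 1 and 429 TPM in pup 3, with 1 lower in pup 1, and the 4 endothelial genes to 145 and 124 TPM. The part of these tissues and cells in the scaffold differences was not tested.

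Markers of the labelled tissue were read too. The level of 1 TPM does not separate midbrain from its neighbours, since 13 of 15 forebrain and hypothalamus genes and 5 of 6 cerebellar genes reached it. Of 7 midbrain genes, 6 reached 1 TPM in both pups, among them Otx2 at 50.3 TPM in pup 1 and 51.2 TPM in pup 3, and the exception was En2 at 0.88 and 0.74 TPM. The dopaminergic genes of this list were higher in pup 1, with Slc6a3, the dopamine transporter, at 20.7 TPM in pup 1 and 12.2 TPM in pup 3 and Th, tyrosine hydroxylase, at 29.8 and 22.3 TPM, and their part in the scaffold differences was not tested. Of 7 Hox genes of hindbrain and spinal cord none reached 1 TPM, with 0 counts in pup 1 and 1 count in pup 3. All 6 neuronal genes passed, and 4 of them were lower in pup 1. They summed to 3879.5 TPM in pup 1 and to 3748 TPM in pup 3. Most of these sums came from Tubb3 (1754 and 1635 TPM) and Stmn2 (1604 and 1556 TPM), both higher in pup 1. Other cells were present, with sums of 218 and 203 TPM for 7 oligodendrocyte lineage genes, 118 and 107 TPM for 5 microglial genes, 2077 and 2234 TPM for 4 erythroid genes and 17.0 and 16.6 TPM for 3 muscle genes.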

How the data were processed

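Total RNA from 2 midbrains was analysed from the gene and transcript tables of each library. A text record that accompanies the deposited tables names transcriptome alignments, build mm10 and GENCODE M4. The program, its version and the use of strand: not given in the sources used here. The authors deposited expected counts (estimated reads per feature), TPM (divided by effective length and scaled over every feature with the spike-ins) and the percent of a gene's TPM on each transcript. The bounds of the credibility interval are a deposited signal in TPM whose level is not stated. The authors' effective length was length minus 99 nt in 100% of read transcripts.

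Symbols, classes, coding sequences and printed bases were taken from GENCODE M21 (build mm10) by Ensembl identifier; 42462 of 43346 genes (97.96%) matched. Ratios used log2(TPM + 0.1). Pup differences used genes at a mean of 100 counts and a limit of 1, and their calculation was checked on simulated counts with known changes. The simulation gave each gene the same effective length in both pups, so it did not cover length shifts such as those of Shank3 and Homer3. A count was called whole within 0.005. Count intervals are exact binomial at 95% and cover counting error only. Expected counts were rounded for the TMM factors of edgeR 4.0.16 and the size factors of DESeq2 1.42.0, alternatives without a test. Other steps used SciPy 1.17.1, Biopython 1.88, pandas 2.3.3, numpy 2.4.6 and matplotlib 3.10.9 in Python 3.11.15, and R 4.3.3.

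Named genes were the 10 scaffolds, the 2 highest and the lowest of each partner list, and Dlgap1 to Dlgap4, Dlg5, Gphn, Ptbp1, Ptbp2, Arc, Fos and Egr1; some genes that this rule names are not reported here. Grin2c, En2, Otx2, Slc6a3, Th, Avp, Atoh1, Tubb3 and Stmn2 were named after their values were seen. The scaffolds and the lists were chosen with earlier results of these data known. Arhgef7 stands in 2 partner lists. Protein sequences were not used here; identity was computed from translated coding sequences.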

Additional observations from a re-analysis of the deposited data

How the results depend on the processing

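No paired analysis was possible because both libraries belong to 1 group. On counts not divided by length, 4 family ratios changed sign: Shank3 over Shank2 was at -1.87, Homer1 over Homer2 at -1.11, Homer3 over Homer1 at -0.086 and Homer3 over Homer2 at -1.20 (log2). On complete coding transcripts, an alternative chosen after seeing the data, Dlg2 over Dlg4 was at -0.42 and Shank3 over Shank2 at -2.16. The counts leave out length, and the complete coding sums leave out every other transcript class; which transcripts turned these ratios was not tested. Homer3 over Homer2 passed the rule on posterior means at 1.48, and in single pups, where no SD enters, it ranged from 1.09 to 1.76. The 5 pairs apart became 3 with a limit of 2 on log2. On counts 8 family pairs met the conditions of sign, size and SD, and on complete coding transcripts 6 did. The interval condition was not applied there, and both numbers include Shank3 over Shank2, whose deposited TPM intervals overlapped. That pair had changed sign in both, as had Homer1 over Homer2 and Homer3 over Homer2 among the 8. The 42 genes past 1 between the pups became 378 at a minimum of 10 counts, 5 at 1000, 2364 with no minimum and 27 with a pseudocount of 1. With other pseudocounts 5 pairs were apart, and on posterior means or without either pup 6 were. The 2 libraries limit the precision of every value.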
